A study of Mus musculus with 24 samples.

Results

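Interferon-stimulated antiviral genes were followed in the chromatin of bone marrow-derived macrophages (BMDMs) by ATAC-seq, where open DNA is cut and tagged by a transposase. The set was a fixed list of 40 genes, and its peaks were all consensus peaks over a gene body or the 10 kb upstream. This gave 316 of 184158 consensus peaks, of which 42 covered a transcription start site (TSS) of a member and 274 did not. All 42 TSS peaks and 259 of the other peaks had enough counts to be tested, and 15 other peaks did not. The TSS peaks covered all 40 genes: Igtp shared one with Irgm2 and Parp9 shared one with Dtx3l, while Ifi47, Irgm2, Iigp1 and Rtp4 had 2 each. The number of other peaks per gene ran from 1 to 31 with a median of 6, and 186 of them had their centre in an intron and 60 upstream of the gene.

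The 24 libraries formed 4 groups of 6, WT and AhR-KO cultures that were each left unstimulated or given LPS. The aryl hydrocarbon receptor (AhR) switches on transcription when it binds small ligands. AhR-KO marrow came from a germline knockout line (B6.129-Ahr tm1Bra/J), so that every cell type lacked the receptor, and WT marrow came from C57BL/6J mice; per the study's methods each group held 6 animals from 1 experiment. All cultures were grown in 10% serum with GM-CSF at 10 ng/ml and TGF-β at 2 ng/ml, which makes BMDMs resemble alveolar macrophages. LPS, the bacterial lipopolysaccharide sensed by TLR4, was added at 97 EU/ml on day 6 and left for 24 h. The calcium ionophore A23187 followed at 5 µM for 10 min, and the labels attach this text to all libraries without separating unstimulated cultures. In bulk cultures, fewer cells with an open site and less opening per cell cannot be told apart.

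Type I interferons bind the receptor pair Ifnar1 and Ifnar2, and the kinases Jak1 and Tyk2 then activate transcription factors. A complex that contains Irf9 binds the interferon-stimulated response element (ISRE), a DNA element built from repeated GAAA, in the promoters of antiviral genes. In macrophages LPS feeds this pathway, since TLR4 signals through Ticam1 and Irf3 to interferon beta. The products sense viral RNA, degrade or sequester it, deplete nucleotides, block viral entry and tag proteins.

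The promoter sequences below are shown because their ISRE letters allow genes with an LPS response of at least 1.5-fold at the TSS to be set beside genes below that. An ISRE core was taken as GAAA, 2 further bases and GAAA, on either strand, and the capitals mark its matches, which appear as TTTC where the element lies on the opposite strand. Sequences are RefSeq, GRCm38.p6, 5′ to 3′ in the direction of the gene, and positions count from the base before the TSS as -1. Ifit1 is at chr19:34640755-34640843 (plus strand, bases -134 to -46) and Ifit3 at chr19:34583343-34583446 (plus strand, -186 to -83). Isg15 is at chr4:156200845-156200926 (minus strand, -108 to -27) and Rsad2 at chr12:26456533-26456602 (minus strand, -150 to -81). These 4 belong to genes whose TSS peaks were at least 1.5-fold higher with LPS in both genotypes. Bst2 is at chr8:71537557-71537632 (minus strand, -160 to -85), Oas1a at chr5:120907526-120907575 (minus strand, -50 to -1), Irgm1 at chr11:48871421-48871480 (minus strand, -60 to -1) and Trim30a at chr7:104465194-104465259 (minus strand, -66 to -1). The TSS peaks of these last 4 genes did not reach a 1.5-fold change with LPS in either genotype.
Ifit1: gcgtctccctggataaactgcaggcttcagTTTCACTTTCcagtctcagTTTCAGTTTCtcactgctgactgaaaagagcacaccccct
Ifit3: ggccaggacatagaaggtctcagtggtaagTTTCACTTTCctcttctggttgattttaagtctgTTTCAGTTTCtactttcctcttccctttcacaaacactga
Isg15: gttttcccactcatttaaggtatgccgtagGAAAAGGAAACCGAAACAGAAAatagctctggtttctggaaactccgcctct
Rsad2: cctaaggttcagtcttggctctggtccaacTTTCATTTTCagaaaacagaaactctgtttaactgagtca
Bst2: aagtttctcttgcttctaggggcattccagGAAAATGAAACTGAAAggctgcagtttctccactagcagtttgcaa
Oas1a: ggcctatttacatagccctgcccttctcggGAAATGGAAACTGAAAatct
Irgm1: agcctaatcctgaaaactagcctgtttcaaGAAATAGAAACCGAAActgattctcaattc
Trim30a: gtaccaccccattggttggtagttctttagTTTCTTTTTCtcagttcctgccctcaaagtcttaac

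An ISRE core was present in the promoter (250 bases before to 50 after the TSS) of 16 of the 30 members that RefSeq gave, 53.3%, against 3.44% of all 32851 promoters. These 30 members had 35 promoters, and a member counted if any of its promoters held the letters, while the share of all is per promoter. The interferon gamma-activated element GAS, spelled TTCNNNGAA, was found for 9 of the 30 members and in 8.30% of all promoters. The AhR core GCGTG was found for 11 of the 30 members (36.7%) and in 32.4% of all promoters, and these unlike units do not show an excess. The kappaB element was found for 6 of the 30 and in 8.46% of all, and the PU.1 and IRF composite element (GGAA, 2 further bases, GAAA) for 6 and in 2.72%. Letters were searched on both strands, GAS, kappaB and the composite element can overlap an ISRE, and a match is a description of the sequence and not a bound site. The 14 members without the ISRE letters in this window included Ifi44, Oasl1, Oasl2 and Isg20, whose TSS peaks were among those with the largest LPS response in AhR-KO cells.

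Total counts in peaks ran from 8.54 to 23.1 M (WT) and 18.9 to 25.7 M (AhR-KO) at rest, that is without LPS, and from 25.1 to 34.6 M (WT) and 22.4 to 28.5 M (AhR-KO) with LPS. At the Ahr gene itself, the TSS peak (chr12:35534069-35535364) was at 22.5 ± 1.67 CPM (counts scaled to the library total, mean ± SD, n = 6) for WT and 13.2 ± 1.199 for AhR-KO at rest, and at 20.2 ± 1.19 and 14.7 ± 1.84 with LPS. No AhR-KO library reached a WT library of its condition there, so none went against its genotype label, although a TSS peak does not read the disruption itself. Of 10 macrophage markers, 9 had a consensus peak over the TSS, and Spi1 did not. No TSS peak was present for any of the 3 T cell, 3 B cell and 3 erythroid markers. Other lineages had one for 2 of 4 neutrophil markers (not Elane and Mpo), 2 of 3 dendritic cell, 1 of 2 NK cell, 1 of 3 stromal and 2 of 3 epithelial markers. The markers of a lineage did not move together. The dendritic cell marker Flt3 was lower in AhR-KO by -1.16 (log2) without and -1.29 with LPS, while Zbtb46 differed by 0.21 and -0.19. The neutrophil marker Camp was higher with LPS by 0.86 in WT and 1.30 in AhR-KO, while S100a8 was lower by -0.31 and -0.48. Summed over the macrophage markers, accessibility ran from 248 to 270.3 CPM for WT and 273 to 362 for AhR-KO at rest, and with LPS from 216 to 244 for WT and 202 to 277 for AhR-KO. Of the 9 peaks, 6 were lower with LPS in AhR-KO cells at 1.5-fold and none in WT, where 5 had a lower value at an unadjusted p under 0.05 and DESeq2 called 0. Of all tested TSS peaks, 11.2% were called lower with LPS in AhR-KO and 6.31% in WT. Other markers rose with LPS in WT and AhR-KO, Csf1r by 0.66 and 0.67 and Cd14 by 0.50 and 0.54. The part of these shifts in the results that follow was not tested.

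The first comparison asked which antiviral genes LPS opened in WT cells. Peaks were called differentially accessible regions (DARs) when they differed 1.5-fold or more and their adjusted p did not exceed 0.05. Of the 42 TSS peaks, 9 were DARs with higher and 1 with lower accessibility, where 4.14% of all tested TSS peaks were higher and 6.31% lower. Of the 259 other peaks, 151 were higher and 14 lower, where 27.2% and 22.9% of all tested peaks away from a TSS were. The median log2 fold change was 0.23 for TSS peaks and 0.77 for other peaks, against -0.07 and 0.00 over all tested peaks of those kinds. The higher TSS peaks belonged to Ifit1, Ifit3, Isg15, Oasl1, Oasl2, Rsad2, Ifi44, Ifitm3 and Ifi47, and the lower one to a second start of Rtp4.

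Among the effectors that bind or degrade RNA, 4 of 10 TSS peaks were higher with LPS in WT and 5 in AhR-KO. Of all tested TSS peaks, 4.14% were higher with LPS in WT and 4.68% in AhR-KO. Away from a TSS the shares were 27.2% and 29.2%. The counts by role and gene that follow can be set beside these shares. Ifit1 encodes a protein that sequesters RNA with foreign 5′ ends. Its TSS peak (chr19:34639357-34641423) ran from 11.5 to 13.6 CPM for WT (median 12.8) and 8.56 to 11.5 for AhR-KO (8.77) at rest, and with LPS from 22.6 to 26.8 for WT (23.9) and 24.5 to 31.6 for AhR-KO (26.97). The lowest WT unstimulated library lay just above the highest AhR-KO one, and with LPS the genotypes overlapped. The LPS difference was 0.96 ± 0.07 (log2, SE) in WT (adjusted p = 9.3e-14) and 1.57 ± 0.07 in AhR-KO (adjusted p = 6.8e-20).

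Oasl1, a relative of the oligoadenylate synthetases that restrains translation of Irf7, had the largest LPS difference of a TSS peak in WT, at 1.28 ± 0.10. Its TSS peak (chr5:114921674-114923642) ran from 14.1 to 18.4 CPM for WT (median 14.7) and 10.5 to 13.2 for AhR-KO (12.7) at rest, and with LPS from 28.9 to 46.0 for WT (38.3) and 46.0 to 60.0 for AhR-KO (53.1). No groups compared overlapped, although with LPS the highest WT and the lowest AhR-KO library were nearly level. In its intron, the peak chr5:114926265-114927118 went from medians of 0.371 (WT) and 0.524 CPM (AhR-KO) at rest to 5.67 and 10.1 CPM with LPS. LPS raised it by 3.88 ± 0.18 in WT and 4.24 ± 0.15 in AhR-KO. Oasl2 (TSS peak chr5:114895921-114898279) and Isg20, an exonuclease that degrades RNA (chr7:78911633-78915232), showed the same order of group medians. Oasl2 medians were 8.46, 4.79, 14.4 and 15.8 CPM (WT and AhR-KO at rest, then WT and AhR-KO with LPS). Isg20 medians were 36.9, 28.1, 53.7 and 72.05 CPM, with no overlap between any of the groups compared.

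The classical oligoadenylate synthetases gave no DAR for LPS at the TSS. Oas1a, Oas2 and Oas3 produce the messenger that activates RNase L, and the LPS differences at their TSS peaks were 0.08, 0.06 and 0.22 (log2) in WT and 0.28, 0.49 and 0.57 in AhR-KO. Away from the TSS, 5 of 7 tested Oas2 peaks were higher with LPS in WT and 7 in AhR-KO. At Eif2ak2, the kinase that stops translation upon binding RNA, the differences at the TSS were 0.03 and 0.14. Near-identical copies within the Ifit, Oas, Trim30, Irgm and Sp100 families can yield reads that do not tell the copies apart. Values of single members of these families carry that uncertainty.

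**Figure D1:**
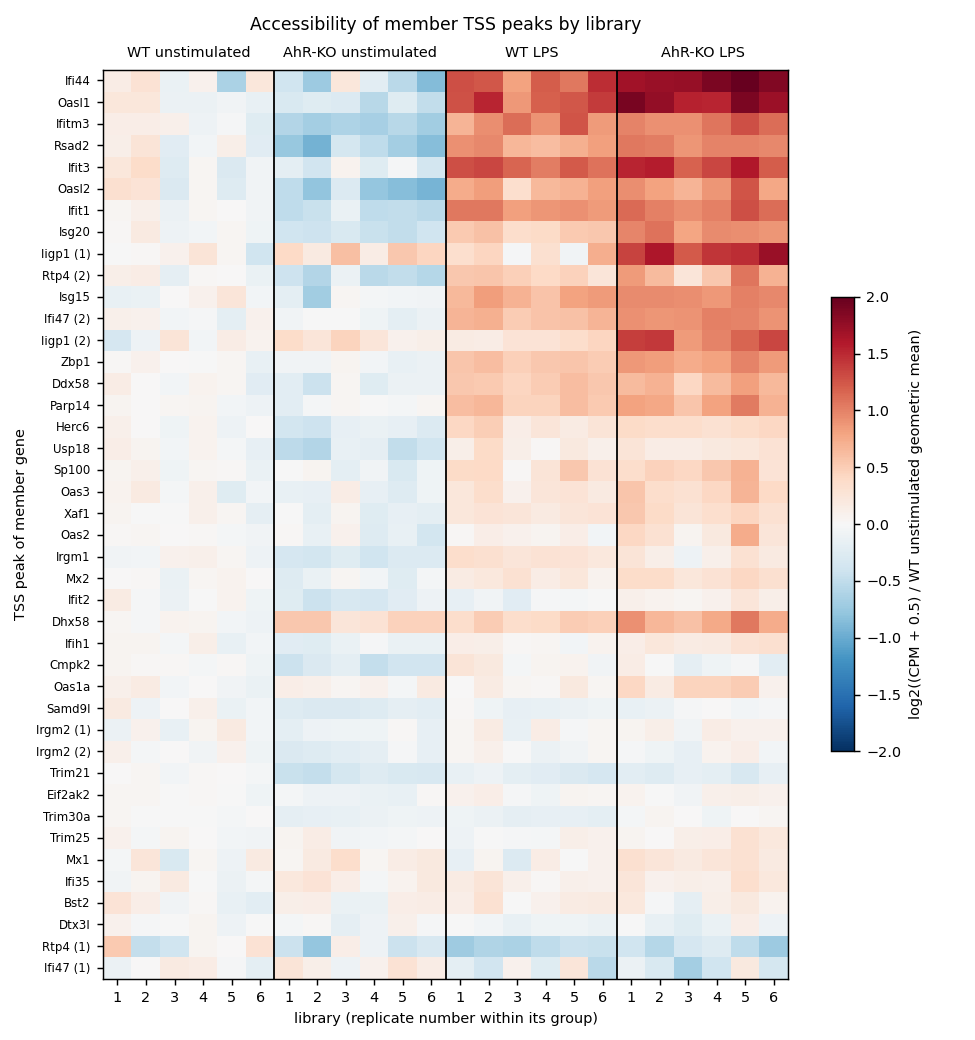
Accessibility of the 42 member TSS peaks (rows, ordered by the LPS difference in AhR-KO) in the 24 libraries (columns, by group and replicate number), as log2 of CPM + 0.5 relative to the WT unstimulated mean of log values, with red higher and blue lower; (1) and (2) mark the peaks of genes that have more than 1. Rows such as Oasl1, Ifitm3 and Rsad2 are blue in AhR-KO unstimulated and reddest in AhR-KO LPS libraries, while rows such as Dtx3l and Bst2 stay near 0.

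RNA and nucleic acid sensors had 4 TSS peaks, of which 2 were DARs with LPS in AhR-KO and none in WT, where 3 had an unadjusted p under 0.05 in edgeR and DESeq2 called 0. Ifih1 and Ddx58 recognise viral RNA in the cytoplasm, Dhx58 is their regulatory relative, and Zbp1 binds left-handed nucleic acid. At Zbp1 (chr2:173217530-173219937) the libraries ran from 31.4 to 37.1 CPM for WT (median 35.3) and 31.3 to 36.3 for AhR-KO (33.3) at rest, and with LPS from 48.9 to 53.8 for WT (51.2) and 59.0 to 70.3 for AhR-KO (63.1). The genotypes overlapped without LPS and did not overlap with it. The LPS difference at Zbp1 was 0.55 ± 0.05 in WT, below the fold threshold, and 0.93 ± 0.05 in AhR-KO. At Ifih1 (chr2:62645372-62646920) it was 0.05 ± 0.05 and 0.37 ± 0.05, both short of a DAR. The Ifih1 gene body held more change, with 11 of 22 tested other peaks higher with LPS in WT and 18 in AhR-KO. At Dhx58 all AhR-KO libraries lay above all WT libraries in both conditions, by 0.43 ± 0.07 without and 0.37 ± 0.07 with LPS, both short of a DAR.

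Rsad2 encodes viperin, which makes a chain-terminating nucleotide, and lies next to Cmpk2, a nucleotide kinase. The Rsad2 TSS peak (chr12:26455961-26456740) ran from 8.72 to 12.5 CPM for WT (median 10.6) and 5.14 to 7.95 for AhR-KO (6.07) at rest, and with LPS from 16.2 to 20.6 for WT (17.9) and 19.6 to 22.03 for AhR-KO (21.1). It was lower in AhR-KO without LPS in every library and overlapped WT with LPS. LPS raised it by 0.81 ± 0.09 in WT and 1.73 ± 0.09 in AhR-KO. The LPS difference at the Cmpk2 TSS peak was 0.09 in WT and 0.31 in AhR-KO, short of a DAR, while 3 of its 4 tested other peaks were DARs with higher accessibility in both genotypes. The genes lie 9.04 and 9.02 Mb from Ahr, where a line backcrossed from another strain can keep flanking DNA. Within 20 Mb of Ahr 31.3% of tested peaks were DARs between genotypes without LPS and 32.7% with it, against 22.5% and 26.4% on other chromosomes. For this pair of genes the receptor and the flanking DNA cannot be told apart.

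The GTPases had 9 TSS peaks, of which 1 was higher with LPS in WT and 3 in AhR-KO. Mx1 and Mx2 belong to a dynamin-like family with members that trap viral nucleoprotein, and Mx2 is a polymorphic pseudogene in the gene annotation. An open site does not show whether a working protein is made. Igtp, Irgm1, Irgm2, Iigp1 and Ifi47 are immunity-related GTPases that act on membranes around pathogens. The Mx1 TSS peak (chr16:97461155-97463697) ran from 28.6 to 42.1 CPM for WT and 36.6 to 45.9 for AhR-KO at rest, and with LPS from 29.6 to 39.5 for WT and 40.3 to 44.5 for AhR-KO. It was not a DAR for LPS in either genotype (-0.03 ± 0.07 and 0.08 ± 0.07), and with LPS the genotypes did not overlap (0.27 ± 0.07, short of a DAR). The response of the Mx genes lay elsewhere, and 8 of 11 tested other peaks of Mx1 and all 9 of Mx2 were higher with LPS in AhR-KO, and 5 and 7 in WT. A peak upstream of Mx1 (chr16:97467908-97468651) was lower with LPS in both genotypes, by -1.33 ± 0.08 in WT and -1.45 ± 0.08 in AhR-KO. At Irgm1 (TSS peak chr11:48870948-48872786) the LPS difference was 0.29 ± 0.06 in WT and 0.47 ± 0.06 in AhR-KO, short of a DAR, with no overlap between unstimulated and LPS libraries.

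Iigp1 was the gene whose starts differed most between genotypes with LPS by fold. Its TSS peak chr18:60380910-60382870 ran from 4.03 to 6.31 CPM for WT (median 5.23) and 5.52 to 7.24 for AhR-KO (6.22) at rest, and with LPS from 5.79 to 7.14 for WT (6.38) and 9.80 to 14.7 for AhR-KO (13.1). All 6 AhR-KO LPS libraries lay above all others. The second TSS peak (chr18:60374367-60376501) showed medians of 1.85 (WT) and 2.55 CPM (AhR-KO) at rest, and 2.39 and 5.76 CPM with LPS. A peak upstream (chr18:60371506-60372192) was lower with LPS by -3.19 ± 0.18 in WT and -3.70 ± 0.16 in AhR-KO, and in unstimulated cells it was higher in AhR-KO by 1.196 ± 0.13.

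The ubiquitin-like and ADP-ribose modifiers had 8 TSS peaks, with 1 higher in WT and 4 in AhR-KO upon LPS. Isg15 is a ubiquitin-like modifier, Usp18 removes it from proteins and dampens the interferon receptor, and Herc6 is the mouse ligase for it. At the Isg15 TSS peak (chr4:156200707-156201006) the libraries ran from 5.15 to 6.86 CPM for WT (median 5.62) and 3.35 to 5.88 for AhR-KO (5.47) at rest, and with LPS from 8.76 to 10.7 for WT (10.0) and 10.9 to 12.1 for AhR-KO (11.5). LPS libraries lay above unstimulated ones in both genotypes, by 0.80 ± 0.10 in WT and 1.16 ± 0.10 in AhR-KO. At Usp18 (chr6:121245150-121246191) medians were 22.2, 16.1, 24.0 and 25.7 CPM (WT and AhR-KO at rest, then WT and AhR-KO with LPS). Its LPS difference was 0.16 ± 0.07 in WT and 0.60 ± 0.07 in AhR-KO. The latter was under the fold threshold without AhR-KO unstimulated replicate 1 (0.57), 2 (0.56) or 5 (0.58). Herc6 held the most peaks, and 26 of 30 tested other peaks were higher with LPS in WT and 28 in AhR-KO. In Parp14, an ADP-ribosyl transferase, the intron peak chr16:35843911-35844509 had the smallest p for LPS in WT among the other peaks, going from a median of 1.83 to 18.9 CPM (3.43 ± 0.14), and from 2.01 to 23.8 CPM in AhR-KO (3.56 ± 0.14).

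Trim30a, a TRIM protein that restrains TLR signalling, had a nearly flat TSS peak (chr7:104463857-104465982) with medians of 58.1, 53.0, 51.8 and 58.5 CPM (WT and AhR-KO at rest, then WT and AhR-KO with LPS). These small shifts did not overlap between the groups compared, with -0.15 ± 0.04 for LPS in WT and 0.14 ± 0.04 in AhR-KO. Of its 16 tested other peaks, 13 were higher with LPS in WT and 14 in AhR-KO. The TSS peaks of Trim21, Trim25 and Dtx3l, which are ubiquitin ligases, also gave no DAR in any comparison.

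The membrane proteins had 4 TSS peaks, with 1 higher and 1 lower upon LPS in WT and 2 higher in AhR-KO. Ifitm3 blocks fusion of incoming virus. Its TSS peak (chr7:141008337-141011221) ran from 11.4 to 14.9 CPM for WT (median 13.9) and 8.14 to 9.07 for AhR-KO (8.47) at rest, and with LPS from 21.9 to 33.1 for WT (25.96) and 25.8 to 33.6 for AhR-KO (28.25). The genotypes were apart without LPS and overlapped with it. LPS raised it by 0.99 ± 0.08 in WT and 1.74 ± 0.09 in AhR-KO. Bst2, or tetherin, holds budding virions at the cell surface, and its TSS peak (chr8:71537007-71537917) overlapped in all comparisons, with medians of 17.1, 19.1, 19.3 and 18.7 CPM (WT and AhR-KO at rest, then with LPS). Rtp4 had a lower value upon LPS in WT at 1 of its starts (chr16:23519917-23520712; medians of 2.25 and 1.33 CPM, -0.75 ± 0.18, groups overlapping) and higher values at the other in AhR-KO (1.18 ± 0.10).

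**Figure D2:**
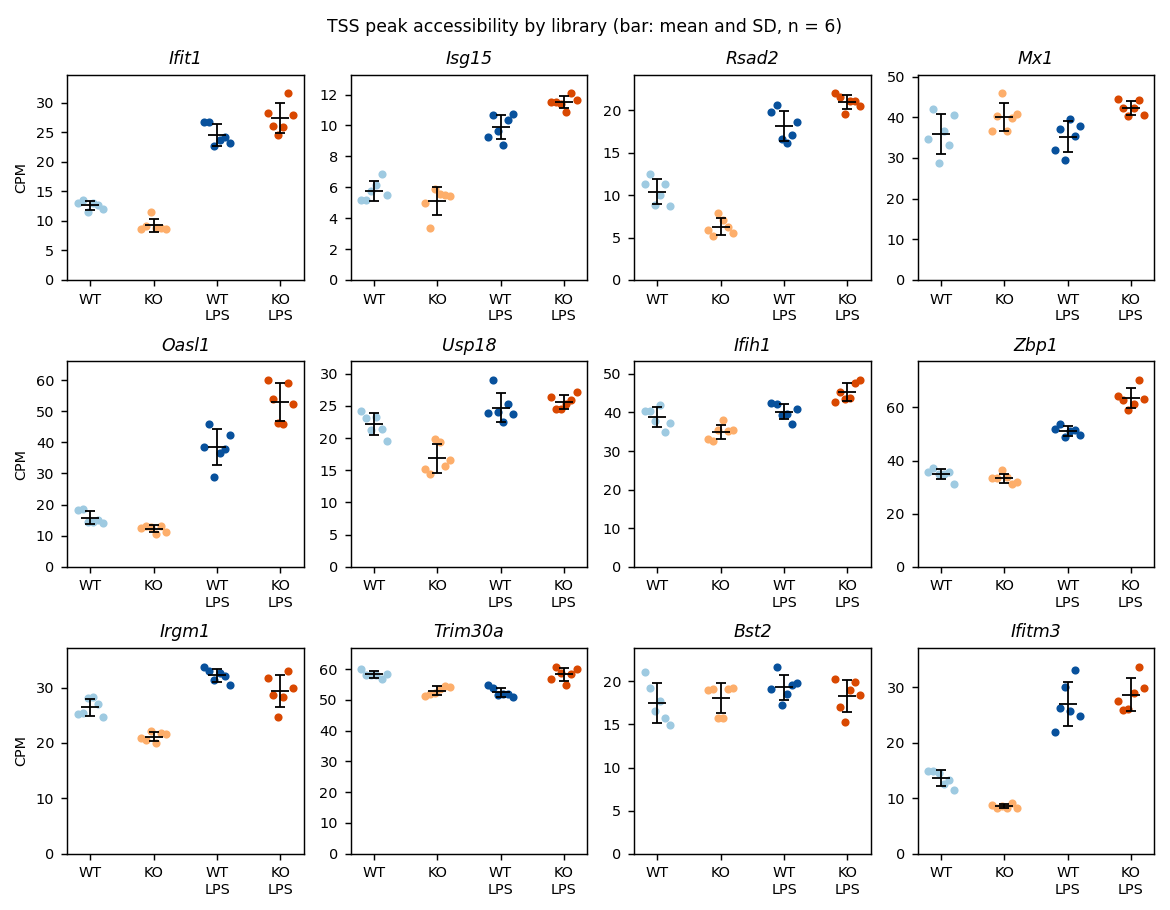
CPM of the TSS peaks of 12 antiviral genes in each library (points), with mean and SD (bars, n = 6), for WT, AhR-KO (KO), WT with LPS and AhR-KO with LPS. Ifit1, Rsad2, Oasl1 and Ifitm3 show low AhR-KO unstimulated values and a rise with LPS in both genotypes, while Mx1, Trim30a and Bst2 stay within a narrow range.

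In AhR-KO cells LPS gave 19 higher and 0 lower DARs among the 42 TSS peaks, where 4.68% of all tested TSS peaks were higher and 11.2% lower. With the adjusted p alone 36 were higher and 1 lower, where 19.5% and 42.1% of all tested TSS peaks were. At an unadjusted p under 0.05 edgeR also gave 36 higher and 1 lower, and DESeq2 called 16 and 0. Among the other peaks 189 were higher and 11 lower, where the background was 29.2% and 22.4%. Medians were 0.50 and 1.42 (log2), against -0.11 and 0.08 over all tested peaks of those kinds. The largest TSS difference was at Ifi44, a gene of uncertain molecular function (chr3:151748532-151750534). Its libraries ran from 2.44 to 5.10 CPM for WT (median 4.46) and 1.99 to 4.83 for AhR-KO (2.80) at rest, and with LPS from 7.46 to 12.2 for WT (10.2) and 14.2 to 18.4 for AhR-KO (15.4). With LPS every AhR-KO library lay above every WT library, and without LPS they overlapped. The LPS difference was 1.22 ± 0.15 in WT and 2.37 ± 0.15 in AhR-KO. All 6 tested other peaks of Ifi44 were higher with LPS in AhR-KO, and 4 in WT.

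**Figure D3:**
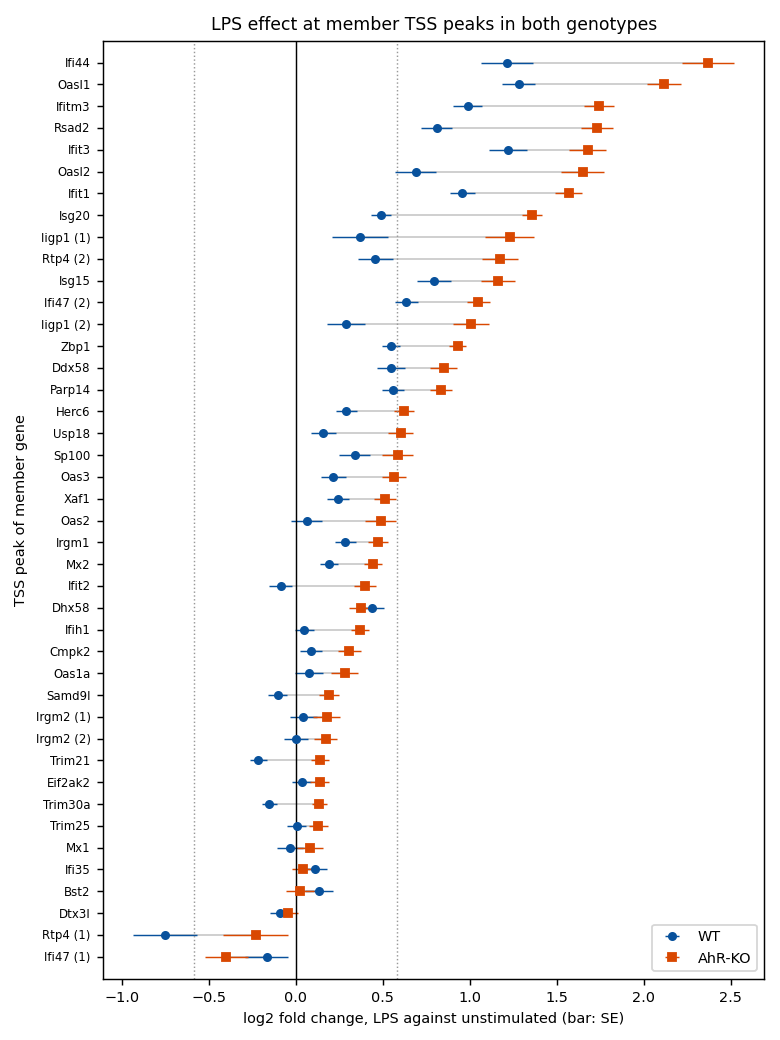
Log2 fold change of LPS against unstimulated (x axis, bars are SE) at each of the 42 member TSS peaks (y axis) in WT (circles) and AhR-KO (squares), with dotted lines at the 1.5-fold threshold. The AhR-KO value lies to the right of the WT value at 38 peaks, from Ifi44 (1.22 and 2.37) downwards, and the exceptions are Dhx58, Ifi35, Bst2 and 1 start of Ifi47.

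Introns held 175 of the 301 tested member peaks and most of their LPS DARs. Over all tested peaks away from a TSS, 27.2% were higher and 22.9% lower with LPS in WT, and 29.2% and 22.4% in AhR-KO. Shares over all peaks by place were not computed. Of 175 tested intron peaks 114 were higher and 6 lower in WT, and 141 and 2 in AhR-KO, with medians of 0.86 and 1.58 (log2). Of 59 tested upstream peaks 21 were higher and 8 lower in WT, and 26 and 9 in AhR-KO, with medians of 0.16 and 0.48. The 10 tested exon peaks had 7 higher in WT and 9 in AhR-KO. Away from the TSS, ISRE letters within 150 bases of the peak centre were in 6.95% of member peaks and 4.75% of all tested peaks away from a TSS. Member peaks with and without these letters had medians for LPS of 0.70 and 0.80 for WT, and of 1.21 and 1.43 for AhR-KO. At TSS peaks the order depended on the window, with AhR-KO medians of 0.37 for 7 peaks with ISRE letters and 0.59 for 35 without in 300 bases, and 0.60 and 0.47 for 15 and 27 peaks in 500 bases.

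**Figure D4:**
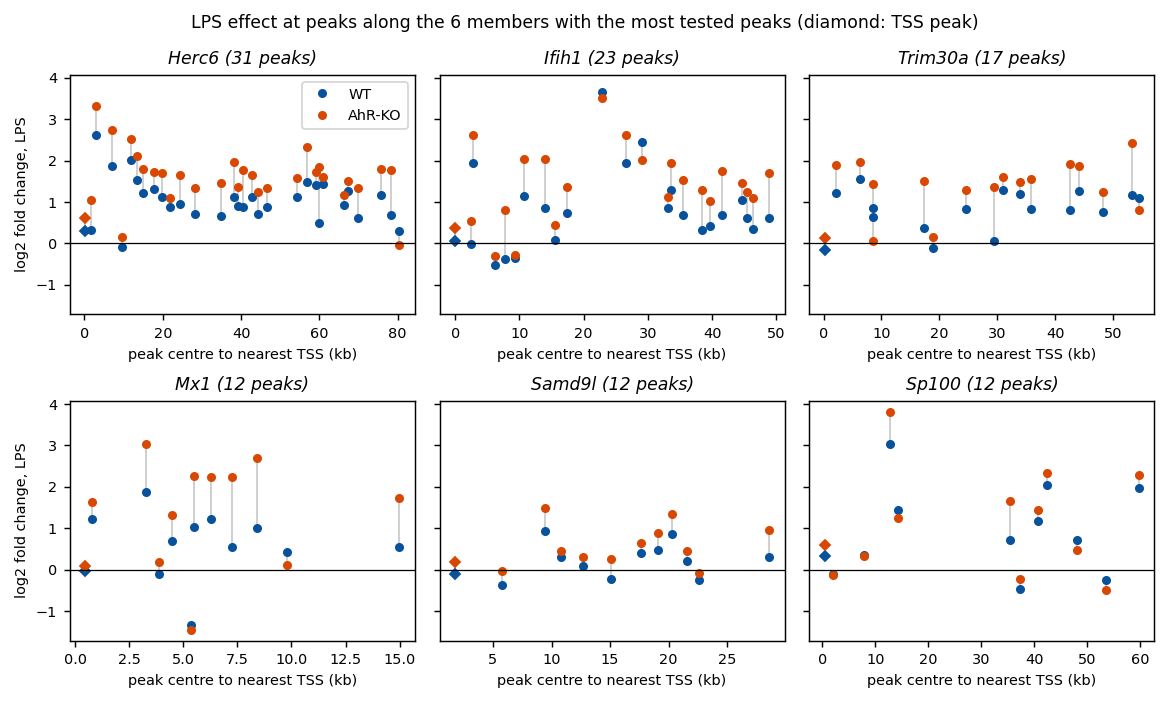
Log2 fold change of LPS against unstimulated (y axis) at every tested peak of the 6 members with the most tested peaks, by the distance of its centre from the nearest TSS in kb (x axis), in WT (blue) and AhR-KO (orange); diamonds are TSS peaks and lines join the values of a peak. Most peaks along Herc6, Ifih1 and Trim30a lie above their TSS peak, and 1 Mx1 peak upstream of its start lies below -1 in both genotypes.

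Genotypes were first compared without LPS. Of the 42 TSS peaks 0 were higher and 3 lower in AhR-KO, where 2.00% of all tested TSS peaks were higher and 4.24% lower. The 3 were Oasl2 (-0.74 ± 0.13, adjusted p = 2.1e-05), Rsad2 (-0.71 ± 0.10, adjusted p = 3.4e-07) and Ifitm3 (-0.67 ± 0.09, adjusted p = 2.4e-07). With the adjusted p alone and no fold threshold, 18 were lower and 2 higher, where 25.4% and 22.3% of all tested TSS peaks were. At an unadjusted p under 0.05 edgeR gave 21 lower and 3 higher, and DESeq2 called 3 and 0. In 11 of the 42 peaks the highest AhR-KO library was below the lowest WT library, and in 1 (Dhx58) the reverse held, where the background was 16.3% and 10.3% of all tested TSS peaks. The median difference was -0.14 (log2), against -0.01 over all tested TSS peaks. Of the 259 other peaks 18 were higher and 30 lower, below the background of 10.6% and close to that of 13.3%.

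Of the other peaks that were lower in AhR-KO at rest, the 2 with the smallest p lay in introns. The Bst2 peak chr8:71535615-71536268 ran from 5.08 to 8.57 CPM for WT (median 6.83) and 1.52 to 2.15 for AhR-KO (1.67) at rest, and with LPS from 6.49 to 10.7 for WT (8.92) and 8.73 to 11.7 for AhR-KO (9.57). It was low in AhR-KO unstimulated libraries alone, by -1.98 ± 0.15 against WT (adjusted p = 5.0e-13), and overlapped WT with LPS. The Herc6 peak chr6:57659153-57659549 was lower in AhR-KO both without (-2.87 ± 0.29) and with LPS (-1.76 ± 0.21), with medians of 2.10, 0.297, 3.40 and 0.937 CPM (WT and AhR-KO at rest, then with LPS). In the other direction, the peak chr16:97472316-97473083 upstream of Mx1 was more open in unstimulated AhR-KO cells by 0.72 ± 0.08, with medians of 11.7 CPM in WT and 19.03 in AhR-KO.

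With LPS the genotype difference had the opposite sign at most member peaks. Of the 42 TSS peaks 3 were higher and 0 lower in AhR-KO, where 1.47% of all tested TSS peaks were higher and 5.52% lower. Of the 259 other peaks 79 were higher and 5 lower, where 14.4% and 13.7% of all tested peaks away from a TSS were. Medians were 0.15 and 0.35 (log2), against -0.03 and 0.03 over all tested peaks of those kinds. With the adjusted p alone, 21 TSS peaks were higher and 0 lower, where 10.5% and 22.8% of all tested TSS peaks were. At an unadjusted p under 0.05 edgeR gave 24 higher and 2 lower, and DESeq2 called 3 and 0. All AhR-KO LPS libraries lay above all WT LPS libraries in 13 TSS peaks and below in 0, against backgrounds of 3.20% and 9.58%. The 3 TSS DARs were both starts of Iigp1 (0.98 ± 0.10 and 1.33 ± 0.14) and Ifi44 (0.66 ± 0.13, adjusted p = 0.00011).

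The genotype difference with LPS was uneven between genes. Of the peaks away from the TSS, all 7 tested ones of Oasl1 were higher in AhR-KO with LPS, and 6 of 9 of Mx2, 7 of 11 of Mx1, 8 of 22 of Ifih1 and 5 of 6 of Ifi44. Other genes were near or below the 14.4% of all tested peaks away from a TSS, some of them with few peaks. These included Herc6 (4 of 30), Trim30a (1 of 16), Ddx58 (0 of 8) and Rsad2 (0 of 6). Their median differences were 0.36, 0.29, 0.05 and 0.13 (log2), against 0.35 over all member peaks away from a TSS. The Oasl1 intron peak chr5:114931545-114933729 ran from 1.90 to 4.63 CPM in WT LPS (median 3.47) and from 9.12 to 16.1 in AhR-KO LPS (11.6), a difference of 1.80 ± 0.16, and its interaction was 2.23 ± 0.36. Its unstimulated libraries overlapped, with medians of 0.759 and 0.453 CPM. In Ifit2 the intron peak chr19:34556296-34556827 had LPS medians of 1.44 CPM for WT and 5.57 for AhR-KO (1.84 ± 0.18), with no overlap. The lower peaks included the Herc6 peak above and a weak peak upstream of Oasl2 (chr5:114887882-114888231), with LPS medians of 1.39 CPM for WT and 0.323 for AhR-KO (-1.85 ± 0.28) and overlapping groups.

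The genotype comparisons without and with LPS share no library, but the labels do not say whether their cultures share animals. A lower value in AhR-KO without LPS together with a higher value with LPS was found at 29 of 42 TSS peaks (69.05%) and 144 of 259 other peaks (55.6%). Over all tested peaks these signs were found at 13.5% of TSS peaks and 16.35% of the rest. The opposite pair of signs was found at 2 TSS peaks and 11 other peaks of the members. Summed over the 42 TSS peaks, accessibility ran from 860 to 938 CPM for WT and 798 to 850.5 for AhR-KO at rest, and with LPS from 1020 to 1141 for WT and 1121 to 1329 for AhR-KO. The genotypes did not overlap without LPS, and with LPS they overlapped between 1121 and 1141 CPM.

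**Figure D5:**
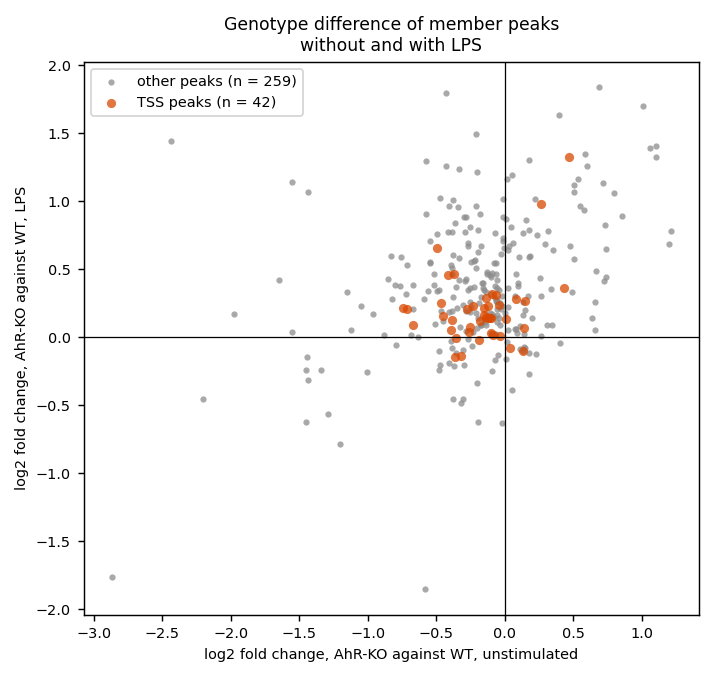
Log2 fold change of AhR-KO against WT in unstimulated libraries (x axis) and in LPS libraries (y axis) for the 42 TSS peaks (orange) and 259 other tested peaks (grey) of the members. The upper left quadrant, lower without and higher with LPS, holds 29 TSS peaks and 144 other peaks, and the Herc6 intron peak lies far to the lower left at -2.87 and -1.76.

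The interaction, which is the genotype difference with LPS minus that without, asked directly whether the LPS response differed between genotypes. It uses the same libraries as the comparisons above and is not independent of them. Of the 42 TSS peaks 10 were DARs with a larger response in AhR-KO and 0 with a smaller one, where 1.11% of all tested TSS peaks were higher and 2.49% lower. Of the 259 other peaks 69 were higher and 1 lower, where 6.22% and 4.76% were. The 10 TSS peaks were those of Ifit1, Isg20, Oasl1, Oasl2, Rsad2, Ifitm3 and Ifi44, both starts of Iigp1, and 1 start of Rtp4. With the adjusted p alone 25 were higher and 0 lower, where 8.39% and 12.3% of all tested TSS peaks were. At an unadjusted p under 0.05 edgeR gave 29 and 0, and DESeq2 called 9 and 0. The smallest p was at Isg20, with an interaction of 0.87 ± 0.08 (adjusted p = 3.4e-09), followed by Rsad2 at 0.92 ± 0.13 (adjusted p = 7.6e-06) and Ifitm3 at 0.76 ± 0.12 (adjusted p = 4.1e-05). Ifit1 was near the fold threshold at 0.61 ± 0.11, and was under it without WT unstimulated replicate 2 (0.58) or AhR-KO LPS replicate 5 (0.56).

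These peaks differed in their resting and LPS levels. At Rsad2, Ifitm3 and Oasl2 the resting level was lower in AhR-KO and the LPS level was 0.21, 0.09 and 0.22 (log2) above WT, none of these a DAR. At the Iigp1 starts the resting levels were above WT by 0.26 and 0.47, short of a DAR, and the LPS levels were higher. At Isg20 and Oasl1 both differences had a similar size, -0.41 and 0.46 at Isg20 and -0.37 and 0.46 at Oasl1. Away from the TSS, the Bst2 intron peak had an interaction of 2.15 ± 0.19 (adjusted p = 1.0e-09), and a Trim30a exon peak (chr7:104435175-104436501) one of 1.28 ± 0.18, with medians of 3.44, 1.73, 3.68 and 4.16 CPM (WT and AhR-KO at rest, then with LPS). The 1 lower peak was upstream of Trim30a (chr7:104472868-104474582, -0.60 ± 0.20, adjusted p = 0.04), and it lost its call in 14 of 24 fits that each left out 1 library (adjusted p of up to 0.08).

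The genes that produce and transmit interferon signals gave DARs at their starts at shares near those of all tested TSS peaks. All 26 genes of a list of interferons, receptors, kinases and transcription factors had a tested TSS peak, and 0 were DARs between genotypes without or with LPS in edgeR and in DESeq2, where edgeR gave 2.00% higher and 4.24% lower, and 1.47% and 5.52%, over all tested TSS peaks. At an unadjusted p under 0.05, 13 were higher and 4 lower in AhR-KO without LPS, and 7 and 5 with it. At the stricter adjusted p alone, 22.3% of all tested TSS peaks were higher and 25.4% lower without LPS, and 10.5% and 22.8% with it. The median difference of the 26 was 0.13 (log2) without and 0.02 with LPS, against -0.01 and -0.03 over all tested TSS peaks. With LPS in WT, 1 was higher (Socs1, an inhibitor of Jak kinases, 0.61 ± 0.07) and 1 lower (Ticam2, an adaptor of TLR4, -0.72 ± 0.07), where 4.14% and 6.31% of all tested TSS peaks were. In AhR-KO 2 were higher, Irf7 (0.75 ± 0.07) and Ifnb1 (0.80 ± 0.14), and 3 lower, Irf8, Tmem173 and Ticam2, where 4.68% and 11.2% of all tested TSS peaks were. The Ifnb1 TSS peak ran from 2.66 to 4.77 CPM for WT and 2.00 to 3.87 for AhR-KO at rest, and with LPS from 4.11 to 5.63 for WT and 4.40 to 5.96 for AhR-KO. The genotypes overlapped in both conditions. At Irf9 the LPS difference was 0.18 (WT) and 0.23 (AhR-KO), short of a DAR. Irf8 was the 1 gene of the list with an interaction DAR, and it was lower (-0.62 ± 0.11).

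The peak lists of single libraries gave a second readout that did not use the consensus counts test. A called broad peak covered the TSS of 34 of the 40 genes in all 24 libraries, and of all 40 genes in all 12 LPS libraries. The 6 exceptions were Oasl1, Oasl2, Iigp1, Isg15, Ifitm3 and Ifi44. The Oasl2 TSS was covered in 3 of 6 WT unstimulated and 0 of 6 AhR-KO unstimulated libraries, and the Ifitm3 TSS in 2 and 0. Isg15 was covered in 4 and 3, Iigp1 in 3 and 2, Ifi44 in 5 and 4, and Oasl1 in 6 and 5. With a stricter -log10 q above 5, 32 genes were covered in all 24 libraries and 39 in all 6 libraries of each LPS group. Oasl2 was then covered in 3 WT and 0 AhR-KO unstimulated libraries, Isg15 in 3 and 3, Oasl1 in 5 and 5, Ifi44 in 2 and 1, Ifitm3 in 0 and 0, Iigp1 in 0 and 2, and Ddx58 in 2 and 4. Summed over genes and unstimulated libraries, covered starts numbered 227 (WT) and 218 (AhR-KO) at the deposited threshold and 212 and 213 at the stricter one, so the order of the genotypes did not hold. Unstimulated libraries also held fewer counts than LPS libraries, and the part of depth in these calls was not tested. Between the unstimulated genotypes the mean total was higher in AhR-KO (22.7 ± 2.25 M) than in WT (18.6 ± 5.62 M).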

How the data were processed

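Chromatin accessibility was measured by ATAC-seq in 24 libraries. The authors ran the nf-core atacseq pipeline on mm10: reads were trimmed, aligned and filtered, broad peaks were called in every library, and all peaks were merged into a consensus set. The deposited table holds raw counts per consensus peak, made per the file headers with featureCounts 2.0.1, and the deposited peak lists hold the -log10 q-value of each broad peak per library, with no replicates pooled. The submitters' processing notes also name bcl2fastq 2.20.0 and MACS2. Peak starts are printed as in the table, which places them 1 base before the first base of the peak.

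The 40 genes and the other lists were chosen with earlier results of these data known. Peaks overlapping a gene body or the 10 kb upstream of it (GENCODE vM21 basic annotation on GRCm38, the assembly behind mm10) went to the nearest member, and 12 peaks in reach of more than 1 member were settled this way. A TSS peak overlaps the start of a protein-coding transcript. Mx2 is a polymorphic pseudogene in that annotation and was kept. Counts were tested with edgeR 4.0.16 (R 4.3.3) on all 24 libraries with the group as the term: filterByExpr, TMM factors (0.976 to 1.04), a quasi-likelihood fit with robust estimation, and Benjamini-Hochberg adjustment over all 174193 tested peaks. P-values are two-sided. Each log2 fold change was divided by the root of its F value to give a standard error (SE). CPM is the count scaled to the TMM-normalized total. Totals in peaks ran from 8.54 to 34.6 M per library, and all libraries of a group differed by more than sampling noise (lowest chi-square per peak 1.27 over 60 pairs), so each counted once. It reached 8.89 between WT LPS replicates 3 and 6. On simulated data for the unstimulated genotype comparison (161900 peaks) the procedure called 27 of 67 peaks changed 1.5-fold, 52 of 67 changed 2-fold and 65 of 66 changed 4-fold, with 4 calls among 161700 unchanged peaks. The simulated counts had 1 fixed spread for all peaks and libraries. These numbers therefore do not give the rate of false calls at the uneven spread of the real libraries. Alternatives were other scalings, no filter, DESeq2 1.42.0, other fold thresholds, a replicate block, each library left out, other peak assignments, a stricter peak threshold and a wider motif window.

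The text names the TSS peaks of 12 genes set by list (Ifit1, Isg15, Rsad2, Mx1, Oasl1, Usp18, Ifih1, Zbp1, Irgm1, Trim30a, Bst2, Ifitm3) and, for every comparison and direction, the 3 TSS peaks and 2 other peaks with the smallest p among those called. Other peaks are named where a count or a motif points to them, after their values were seen. Promoter sequences and starts come from RefSeq (GRCm38.p6), which matched 30 of the 40 genes.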

Additional observations from a re-analysis of the deposited data

Results flagged for a closer look

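In 120 groups of 6 libraries (30 named peaks in 4 groups), 3 held a library whose gap to its neighbour exceeded 0.625 of the group's range, and chance alone marks about 1 in 20 groups. These were AhR-KO unstimulated replicate 3 at the Ifit1 TSS peak (11.5 CPM, high), AhR-KO unstimulated replicate 2 at the Isg15 TSS peak (3.35 CPM, low) and WT LPS replicate 3 at the Trim30a exon peak (2.96 CPM, low).

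The LPS response differed between genotypes at 15 of the 30 named peaks by the interaction term. Many of the 30 were named for having the smallest p among called peaks, in the interaction or in another comparison. That choice fixed part of the count, which therefore cannot be set beside the shares over all tested peaks. At TSS peaks the log2 interaction was 0.61 for Ifit1, 0.92 for Rsad2, 0.84 for Oasl1, 0.76 for Ifitm3, 0.96 for Oasl2, 0.87 for Isg20, 1.16 for Ifi44, and 0.72 and 0.86 for the starts of Iigp1. Away from the TSS it was 2.15 in the Bst2 intron, 2.23 in the Oasl1 intron, 1.15 in the Ifit2 intron, 1.28 in the Trim30a exon peak and 1.105 in the Herc6 intron. The peak upstream of Trim30a went the other way at -0.60.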

How the results depend on the processing

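The direction of every named value (114, of which 72 were called) was kept under RLE size factors, total counts, no filter, DESeq2 and the replicate block. RLE took the call from 3 and DESeq2 from 2. Leaving out 1 library took the call from 8, among them the Herc6 intron interaction in 14 of 24 fits (adjusted p of up to 0.10; WT unstimulated replicates 1, 2, 4 and 6, AhR-KO unstimulated replicates 1, 2, 5 and 6, WT LPS replicates 1, 4 and 5, AhR-KO LPS replicates 2, 3 and 6), the interaction upstream of Trim30a in 14 (up to 0.08; WT unstimulated replicates 1, 3 and 5, AhR-KO unstimulated replicates 2, 3, 5 and 6, WT LPS replicates 1, 4 and 6, AhR-KO LPS replicates 1, 2, 3 and 6) and the Ifit2 intron interaction in 5 (up to 0.095; WT unstimulated replicates 2 and 6, AhR-KO unstimulated replicates 4 and 6, WT LPS replicate 1). The LPS difference of the Herc6 intron peak in WT was under 1.5-fold without WT LPS replicate 2 (0.53), and the peak upstream of Trim30a lost its genotype call without WT unstimulated replicate 1 (0.58) and its LPS call in WT without that replicate or WT LPS replicate 1 (both 0.57).

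Counts of DARs depended on the fold threshold. At 2-fold, AhR-KO against WT without LPS gave 0 TSS peaks and 24 other peaks, AhR-KO against WT with LPS 1 and 31, LPS in WT 3 and 100, and the interaction 1 and 45. With no fold threshold, AhR-KO against WT gave 20 TSS and 78 other peaks without LPS and 21 and 138 with it. For LPS it then gave 26 (WT) and 37 (AhR-KO) TSS peaks, and for the interaction 25. Counting peaks within 1 kb of a TSS as TSS peaks gave 5 DARs in each genotype comparison. ISRE letters were in 15 TSS and 32 other peaks with a window of 500 bases, against 7 and 18 with 300.

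Without each library in turn, DARs ran from 3 to 4 (TSS) and 46 to 51 (other) for AhR-KO against WT without LPS, 3 to 3 and 74 to 95 with LPS, 10 to 10 and 159 to 168 for LPS in WT, 17 to 20 and 199 to 204 for LPS in AhR-KO, and 9 to 10 and 56 to 74 for the interaction. Scalings moved the median of all peaks by less than 0.1. The share of interaction DARs that were higher went from 56.0% (edgeR) to 45.8% (DESeq2) over all peaks and from 98.75% to 98.65% over member peaks.

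The labels number replicates 1 to 6 in each group without saying what a number shares. Correlations of same-numbered libraries ran from 0.06 to 0.37 between WT conditions, 0.01 to 0.23 between AhR-KO conditions and -0.17 to 0.29 between genotypes. Between conditions, 5 of 6 pairs in WT and 3 of 6 in AhR-KO were above 0.1, and 4 and 3 libraries correlated best with their own number. Whether equal numbers share an animal across conditions is therefore not settled, and the main fit did not pair them. With the replicate block the counts (TSS, other) were 3 and 50, 3 and 81, 10 and 164, 18 and 201, and 10 and 75 in the order above. With the block nested in genotype, they were 10 and 165 (LPS, WT), 18 and 201 (LPS, AhR-KO) and 10 and 81 (interaction). At WT unstimulated depths, as low as 8.54 M counts, levels under about 1 CPM rest on few counts.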
